A study of Mus musculus with 15 samples.

Results

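The 9 transcription factor genes studied here hold the identity of microglia, and they were followed in RNA from sorted mouse cortical microglia: Spi1, Irf8, Sall1, Sall3, Maf, Mef2c, Mef2a, Runx1 and Cebpa. They were chosen by name, as 9 of the 36528 gene identifiers in the deposited tables, and all 9 passed the filter on low counts that left 13994 genes for testing. RNA-seq was made from GFP-positive cells sorted from cortex. The PS2APP group had 9 samples, 4 from animals aged 14 months and 5 from animals aged 15 months. The non-Tg group, labelled as wild type without the transgenes, had 6 samples, 2 at 14 months and 4 at 15 months. Every sample in both groups carried the Cx3cr1::GFP reporter that was used for the sort. PS2APP mice, used to model Alzheimer's disease, express mutant forms of human presenilin 2 and human amyloid precursor protein and deposit amyloid. The sources used here do not give the promoters of the transgenes, the sex of the animals or whether each sample came from a single animal. If samples were not from separate animals, the p-values below measure only the spread between these samples.

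Microglia are the resident macrophages of the brain. PU.1, the product of Spi1, and IRF8 bind together at composite sites and set the macrophage lineage, with RUNX1 and C/EBP-alpha acting early in myeloid development. SALL1, the MAF factors and the MEF2 factors then act at enhancers that PU.1 has opened and distinguish microglia from other macrophages, and TGF-beta from the brain maintains that state. SALL1 and SALL3 are zinc finger repressors of the spalt family, and SALL1 is, among brain cells of the adult, largely a microglial protein.

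Libraries held between 3664742 and 8455237 counted reads, with a median of 5867848. The counts of microglia markers fitted the labelled cell type. The summed level of 9 markers (including P2ry12, Tmem119, Cx3cr1 and Csf1r) was 15913 to 21481 CPM (read counts scaled per library size and composition) in PS2APP and 19969 to 25722 in non-Tg. Between the genotypes 0 of the 9 were called, with 8 estimates below 0 and 1 above. Over all tested genes 1.18% were called, 0.958% higher and 0.222% lower in PS2APP. The median log2 fold change of the 9 markers, PS2APP minus non-Tg, was −0.21, against −0.02 over all genes. Markers of other cells were far lower, and no matched marker was at 0 in every sample (1 lymphocyte marker, Trbc2, was not matched). The 8 border macrophage markers summed to 282 to 492.6 CPM in PS2APP and 210 to 626 in non-Tg, with 0 of 8 called. The 10 neuron markers summed to 15.5 to 80.7 CPM in PS2APP against 79.2 to 208 in non-Tg, and 2 of the 7 tested were called lower. Choroid plexus markers summed to 13.6 to 33.4 CPM in PS2APP and 9.65 to 421 in non-Tg, with 2 of 3 tested called lower. The other lists were astrocyte (314 to 617 CPM in PS2APP, 451 to 1079 in non-Tg, 1 marker called higher and 1 lower of 6), endothelial (36.9 to 63.0 and 44.3 to 90.6, 1 higher and 1 lower of 5 tested) and oligodendrocyte (121 to 265 and 187 to 770, 0 of 5 tested called). Monocyte and neutrophil markers summed to 26.1 to 47.6 CPM in PS2APP and 18.2 to 104 in non-Tg, and lymphocyte markers to 4.50 to 17.0 and 9.90 to 25.6, with the 1 tested gene of each list not called. A set of 4 libraries stood apart in immediate early genes, PS2APP 1, PS2APP 4, non-Tg 9 and non-Tg 13, with mean log2 levels of 7.41 to 9.67 against 3.09 to 3.92 in the other 11. Xist was at 16.7 to 47.0 CPM in non-Tg 12, non-Tg 13 and PS2APP 14 and at 3676 to 7216 CPM in the other 12 libraries. In bulk RNA, fewer cells of a type and less RNA per cell cannot be told apart.

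The promoters of Irf8, Mef2c and Sall1 are shown because of the largest correlations in size between factors, described below. These were Irf8 with Mef2c (negative) and Sall1 with its paralog Sall3 (positive). In the main setting only Irf8 with Mef2c passed adjustment, by Pearson's r and not by Spearman's rho. RefSeq promoter records (GRCm38.p6) were given for 6 of the 9 members, Irf8, Sall1, Mef2c, Mef2a, Runx1 and Cebpa. Each sequence reads 5′ to 3′ toward the transcription start, in lower case, with matches to the listed motifs in capitals. The Irf8 sequence is chr8:120736158-120736357 on the plus strand, the 200 bases before the start. The Mef2c sequence is chr13:83503834-83504016 on the plus strand, 183 bases that end where the annotated gene begins. The Sall1 sequence is chr8:89044163-89044362, read on the minus strand. The table lists further starts for each, 2 in all for Irf8, 3 for Mef2c and 3 for Sall1, and the 1 printed for each is the first along the gene.
Irf8: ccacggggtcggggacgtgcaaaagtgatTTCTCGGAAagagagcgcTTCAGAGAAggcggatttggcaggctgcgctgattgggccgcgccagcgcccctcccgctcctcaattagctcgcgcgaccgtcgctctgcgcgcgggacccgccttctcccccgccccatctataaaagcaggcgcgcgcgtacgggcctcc
Mef2c: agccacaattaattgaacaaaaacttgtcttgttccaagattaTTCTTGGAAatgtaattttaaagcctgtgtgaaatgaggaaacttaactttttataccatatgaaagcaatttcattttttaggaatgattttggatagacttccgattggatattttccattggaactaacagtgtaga
Sall1: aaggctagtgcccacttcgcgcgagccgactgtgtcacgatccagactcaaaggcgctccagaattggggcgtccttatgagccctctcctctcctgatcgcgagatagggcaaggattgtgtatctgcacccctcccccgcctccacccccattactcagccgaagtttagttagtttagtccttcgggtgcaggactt
The capitals mark TTCNNNGAA, the palindrome that STAT dimers bind, known as a GAS element. Irf8 held 2 such matches, beginning 171 and 153 bases before the start. Mef2c held 1, beginning 157 bases before its listed start at base 83504034, which lies past the end of the printed sequence. The same letters were present in the 250 bases upstream of 7.02% of 32851 promoters, so a match is not rare, and it is a description of the letters, not of binding. The other letters searched on both strands were the PU.1 site GAGGAAGT (2.44% of promoters), the IRF element, GAAA followed after any 2 bases by GAAA again (2.98%), the C/EBP palindrome TTGCGCAA (0.164%) and its looser form TTGCNNAA (9.56%), the RUNX site TGTGGT (14.0%), the MEF2 sites TAAAAATA (2.45%) and TATTTATA (1.56%) and the MAF half-site TGCTGA (16.1%). None of these matched in the 3 printed windows, while a MAF half-site lay before another listed start of Irf8 (157 bases upstream) and of Mef2c (104 bases upstream). The looser C/EBP form contains the palindrome. Guanine and cytosine made up 67.2% of the 250 bases upstream of Irf8, 56.4% of those of Sall1 and 33.6% of those of Mef2c, with a median of 52.4% over all promoters.

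All 9 factors were well expressed. On the length-corrected scale the authors deposited (nRPKM, RPKM adjusted by a size factor), their levels ranked between the 84.1 percentile (Cebpa) and the 99.1 percentile (Mef2a) of the tested genes. Over the 15 samples, Mef2a averaged 61.2 ± 9.66 nRPKM (SD, n = 15) and Maf 59.0 ± 20.5, and Mef2a was the higher of that pair in 11 of 15 samples. Mef2c (38.4 ± 7.15 nRPKM) and Sall1 (37.1 ± 6.18) came next and did not differ beyond their spread, Mef2c being the higher in only 7 of 15 samples. Spi1 averaged 30.9 ± 7.42 nRPKM and Irf8 26.02 ± 4.77, with Spi1 the higher in 12 samples. Runx1 averaged 15.5 ± 3.20 nRPKM and lay above Sall3 (8.45 ± 1.56) in all 15 samples, with ranges that did not overlap. Cebpa was lowest, at 6.83 ± 2.25 nRPKM, below Sall3 in 12 of 15 samples. Between Runx1 and Sall3 alone was there a clean step. Every other pair of neighbours in the order had overlapping ranges.

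**Figure D1:**
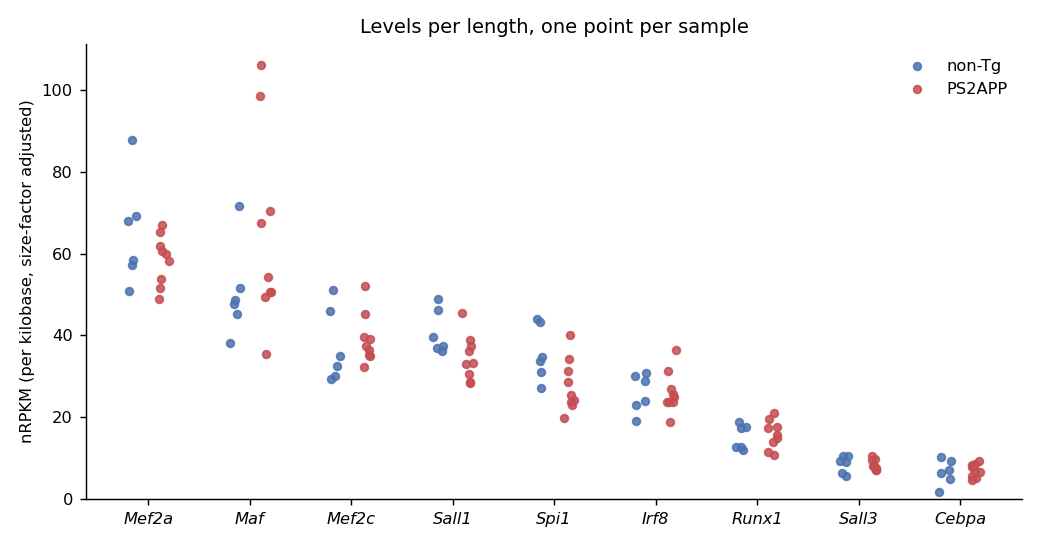
Level of each factor per sample in nRPKM (linear axis from 0), ordered by the mean over 15 samples, with non-Tg in blue and PS2APP in red. Mef2a and Maf are highest and Cebpa lowest, and the ranges of the genotypes overlap for each factor. The PS2APP points of Spi1 and Sall1 tend to the low side, with 4 and 3 of 9 inside the non-Tg range.

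None of the 9 factors differed between PS2APP and non-Tg beyond the spread between samples. In edgeR's quasi-likelihood test, adjusted for age, with Benjamini-Hochberg adjustment over 13994 genes, 0 of 9 were called at an adjusted p under 0.05, and 0 of 9 had an unadjusted p under 0.05. Over all tested genes 165 were called, 1.18%, so a list of 9 with no called gene does not stand apart from the rest. The groups' ranges overlapped for all 9 members, and they failed to overlap for 89 genes, 0.636%, of all tested. By sign, 5 estimates were above 0 and 4 below, with a median log2 fold change of 0.04 against −0.02 over all genes. The median size of the log2 change, ignoring its sign, was 0.07 for the factors and 0.25 over all genes. The 95% interval of each factor stayed within 2-fold either way, which held for 56.5% of all tested genes, and within 1.5-fold for 6 of 9, against 22.1%. A factor may still differ by an amount that lies inside its interval. The smallest difference detectable at this number of samples was not tested. The values over all genes cover every level, while the factors lay between the 77.7 (Cebpa) and 99.6 (Mef2a) percentiles by CPM. Genes of like level were not compared, so small changes and narrow intervals cannot be read as particular to the factors.

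**Figure D2:**
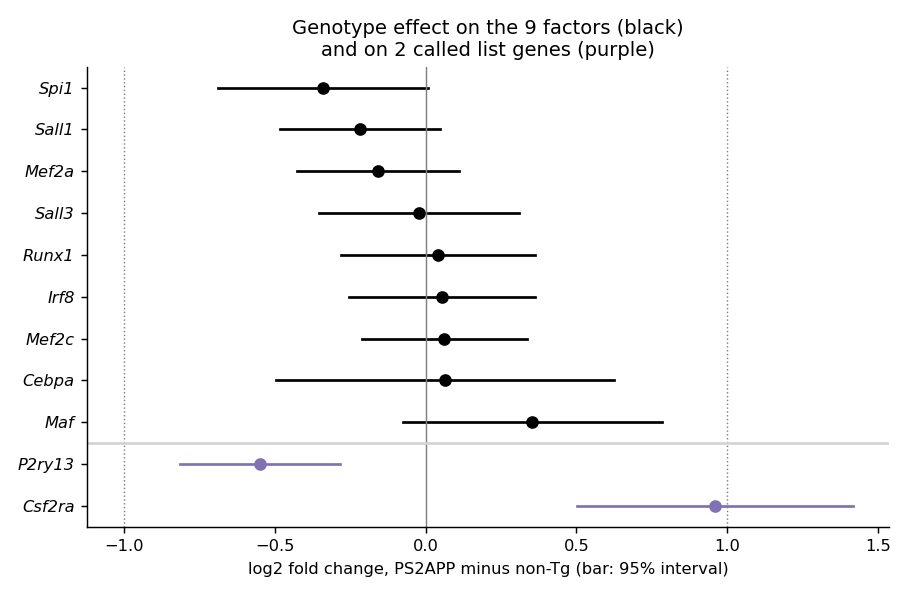
Log2 fold change, PS2APP minus non-Tg, with its 95% interval for the 9 factors (black) and for the 2 genes called among the pathway lists (purple), with dotted lines at a 2-fold change. Each black interval crosses 0, those of Spi1 (−0.69 to 0.01) and Maf (−0.07 to 0.78) least evenly.

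Spi1 (chr2:91082374-91115759) encodes PU.1, the ETS factor without which microglia do not form. Its level ran from 146.1 CPM over a median of 182.6 to 237.2 in non-Tg, and from 106.0 over 137.9 to 214.3 in PS2APP. The PS2APP samples tended to the low side, 7 of 9 being below the non-Tg median and 4 inside the non-Tg range, but the groups overlapped. The means were 191 ± 36.9 CPM (SD, n = 6) in non-Tg and 149.8 ± 34.6 (SD, n = 9) in PS2APP, a log2 fold change of −0.34 ± 0.17 (SE; adjusted p = 0.436, edgeR; unadjusted p = 0.0542). The highest PS2APP values were those of PS2APP 4 (214.3 CPM) and PS2APP 1 (185.7 CPM), both high in immediate early genes, as was the highest non-Tg library, non-Tg 9 (237.2 CPM). The fourth such library, non-Tg 13, was mid-range (186.2 CPM), and non-Tg 2, low in these genes, was nearly as high as non-Tg 9 (233.9 CPM). Without the 4 libraries high in these genes the Spi1 log2 estimate was −0.39 (adjusted p = 0.298, edgeR). Irf8 (chr8:120736358-120756694) encodes the interferon regulatory factor that partners PU.1. It ran from 242.8 CPM over 337.6 to 392.7 in non-Tg and from 239.7 over 319.7 to 472.0 in PS2APP, with 6 of 9 PS2APP samples inside the non-Tg range and the highest values in PS2APP. Its means were 331 ± 61.1 and 335 ± 66.5 CPM, and the log2 fold change was 0.05 ± 0.15 (95% interval −0.25 to 0.36; adjusted p = 0.936, edgeR).

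The spalt pair differed from each other in level more than either did by genotype. Sall1 (chr8:89027242-89044162), the repressor most restricted to microglia among these factors, ran from 1089.3 CPM over 1154.9 to 1482.8 in non-Tg and from 861.2 over 1009.5 to 1384.2 in PS2APP. In all, 7 of 9 PS2APP samples were below the non-Tg median and 3 were inside the non-Tg range. The means were 1230.0 ± 163 and 1044 ± 169 CPM, a log2 fold change of −0.22 ± 0.13 (95% interval −0.48 to 0.05; adjusted p = 0.533, edgeR). Sall3, a paralog on chromosome 18 with the same zinc finger architecture, ran from 151.3 CPM over 241.5 to 280.8 in non-Tg and from 188.8 over 215.9 to 282.2 in PS2APP. For Sall3, 8 of 9 PS2APP samples were inside the non-Tg range. The log2 fold change was −0.02 ± 0.16 (95% interval −0.35 to 0.31; adjusted p = 0.982, edgeR). Of the other family members, Sall2 was at 1.83 nRPKM in non-Tg and 1.67 in PS2APP and was not called, and Sall4, a stem cell factor, had no read in any library.

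Maf (chr8:115703253-115706894) encodes c-MAF, a large MAF factor of macrophages. It had the widest relative spread in PS2APP, with a coefficient of variation of 36.3%, against 22.4% in non-Tg. Its level ran from 523.3 CPM over 658.4 to 977.3 in non-Tg and from 486.8 over 742.9 to 1443.4 in PS2APP. As many as 8 of 9 PS2APP samples were above the non-Tg median, and PS2APP 3 (1443.4 CPM) and PS2APP 7 (1335.9 CPM) lay well above the rest. The means were 688 ± 154 and 884 ± 321 CPM, a log2 fold change of 0.35 ± 0.21 (adjusted p = 0.532, edgeR), with the interval reaching 0.78. Adding each library's neuron marker level to the fit moved the Maf estimate to 0.68, with an adjusted p of 1, and those markers were lower in PS2APP as given above.

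The MEF2 factors, activators that bind A/T-rich sites and are restrained by class IIa histone deacetylases, gave small and opposite estimates. Mef2c (chr13:83504017-83667079) ran from 791.3 CPM over 903.9 to 1372.6 in non-Tg and from 862.0 over 1008.9 to 1396.4 in PS2APP. For Mef2c, 8 of 9 PS2APP samples were inside the non-Tg range, and the log2 fold change was 0.06 ± 0.13 (95% interval −0.21 to 0.34; adjusted p = 0.910, edgeR). Mef2a (chr7:67231163-67376456) ran from 1293 CPM over 1605 to 2235 in non-Tg and from 1253 over 1536 to 1697 in PS2APP. Its PS2APP samples were the tightest of any factor, with a coefficient of variation of 10.1%, against 20.0% in non-Tg, where non-Tg 13 was highest. The means were 1658 ± 332 and 1489.8 ± 151 CPM, and the log2 fold change was −0.16 ± 0.13 (95% interval −0.42 to 0.11; adjusted p = 0.699, edgeR).

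Runx1 (chr16:92601466-92826074) encodes the DNA-binding subunit of the core binding factor of blood and myeloid development. It ran from 330.6 CPM over 421.7 to 524.1 in non-Tg and from 299.4 over 442.5 to 585.8 in PS2APP, the wider range being in PS2APP at both ends. The log2 fold change was 0.04 ± 0.15 (95% interval −0.28 to 0.36; adjusted p = 0.959, edgeR). Cebpa (chr7:35119293-35121928), the single-exon gene of the myeloid factor C/EBP-alpha, ran from 17.2 CPM over 65.8 to 102.9 in non-Tg and from 44.9 over 66.5 to 92.7 in PS2APP. All 9 PS2APP samples were inside the non-Tg range, whose lower end was set by non-Tg 11, the library farthest out on the first principal component. The means were 65.5 ± 30.8 and 68.9 ± 16.5 CPM, and the log2 fold change was 0.07 ± 0.27 (95% interval −0.50 to 0.63; adjusted p = 0.964, edgeR). Without non-Tg 11 the Cebpa estimate was −0.13 (adjusted p = 0.891). Exons of Maf, Mef2a, Runx1 and Cebpa overlap those of an antisense gene in GENCODE vM21 (Gm15655, Lysmd4, Gm26626 and Gm45091). The use of strand in counting is not stated, so reads of these 4 factors and their antisense partners cannot be told apart.

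**Figure D3:**
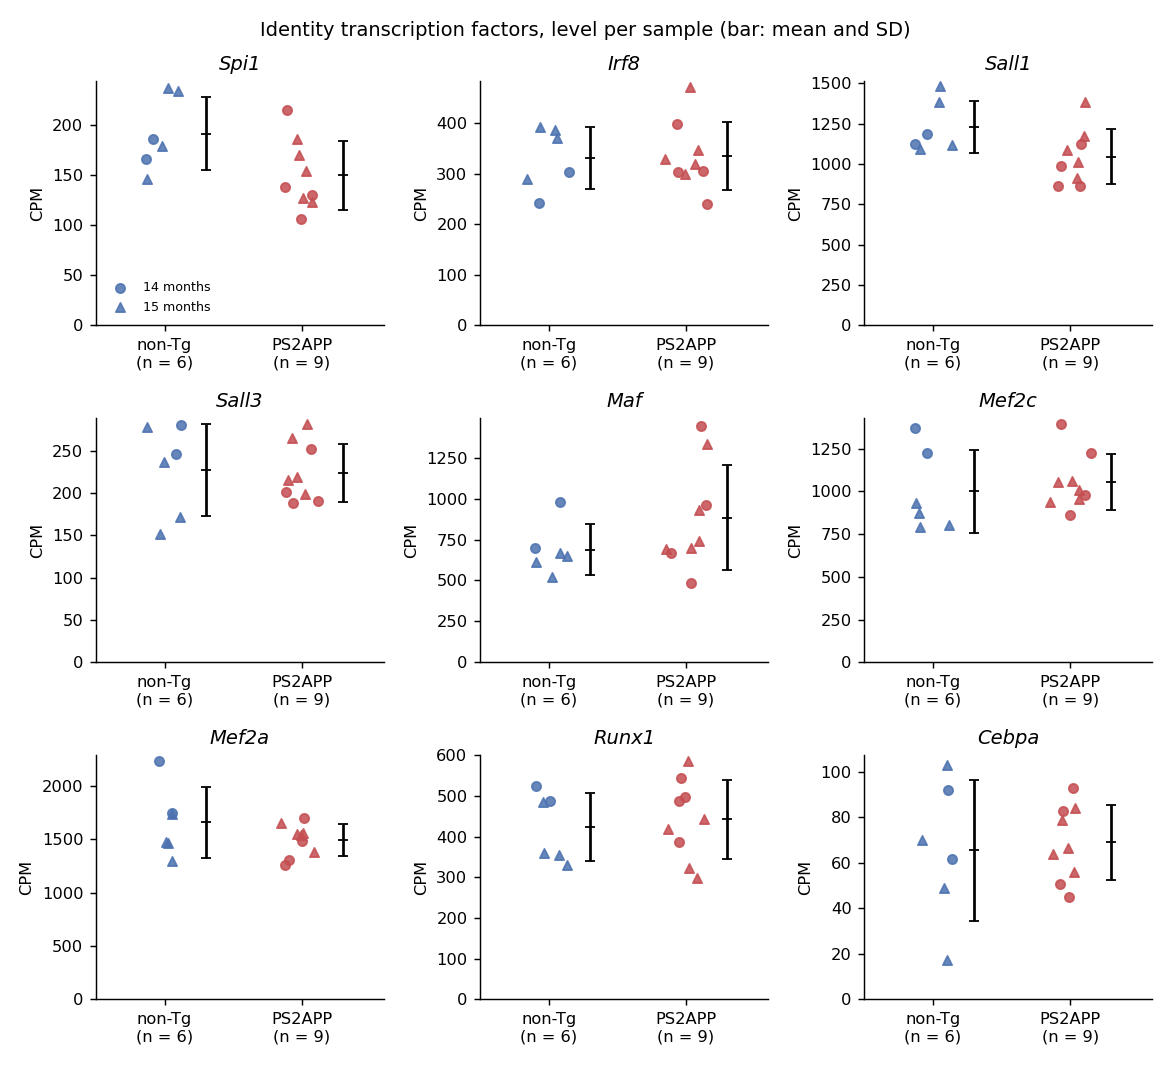
Level of each factor in CPM (linear axes from 0) in 6 non-Tg and 9 PS2APP samples, circles at 14 months and triangles at 15 months, with the mean and SD beside each group. The groups overlap in all 9 panels, and the spread of Maf in PS2APP (486.8 to 1443.4 CPM) is the widest relative to its mean among the PS2APP groups, while Cebpa (17.2 to 102.9 CPM) is the widest among the non-Tg groups.

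Set beside their gene families on the length-corrected scale, several of the factors were the leading members. Spi1, at 35.6 nRPKM in non-Tg and 27.8 in PS2APP, was the highest of 16 ETS genes, ahead of Fli1 (16.7 and 17.4) and Elk3 (17.3 and 16.02). The closest relatives of PU.1, Spib and Spic, gave at most 13 and 6 reads in a library. Irf8 was the highest of 9 interferon regulatory factors, at 25.9 and 26.1 nRPKM, followed by Irf5 at 18.5 and 16.4. Maf averaged 50.4 nRPKM in non-Tg and 64.7 in PS2APP, and the small MAF gene Mafg 4.39 and 5.74. Mef2d stood at 9.86 and 11.4 nRPKM, well below Mef2a and Mef2c, and Mef2b had no read. Runx1 (15.1 and 15.8 nRPKM) was near its non-DNA-binding partner Cbfb (11.7 and 15.1), whose log2 fold change was 0.35 ± 0.18 (adjusted p = 0.458, edgeR), while Runx2 was at 0.611 and 0.628 nRPKM. Among C/EBP genes, Cebpg (11.2 and 11.8 nRPKM) was above Cebpa (6.63 and 6.97).

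No other family member tested here was called. Over all tested genes the share was 1.18%, so lists this short with no call do not stand apart. The counts were 0 of 12 tested ETS genes (median log2 fold change 0.03), 0 of 8 IRF genes (0.02), 0 of 3 MAF genes (0.02), 0 of 1 MEF2 gene (0.25), 0 of 2 RUNX genes with Cbfb (0.21), 0 of 1 SALL gene (−0.13) and 0 of 4 C/EBP genes (−0.21), beside −0.02 over all genes. The nearest to a call was Cebpd, an acute-phase C/EBP factor. It ran from 39.5 CPM over 45.8 to 72.8 in non-Tg and from 22.0 over 34.4 to 41.6 in PS2APP, and all 9 PS2APP samples were below the non-Tg median. Its log2 fold change was −0.72 ± 0.20 (adjusted p = 0.105, edgeR). DESeq2 called it (adjusted p = 0.0284), the only one of 32 alternative settings to do so. Etv5, an ETS factor of the PEA3 group, gave −0.50 ± 0.17 (adjusted p = 0.200, edgeR), and Irf9, the DNA-binding part of the interferon-stimulated complex ISGF3, gave 0.44 ± 0.16 (adjusted p = 0.237, edgeR). Mafg, a small MAF without an activation domain, gave 0.40 ± 0.18 (adjusted p = 0.364, edgeR).

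Partners and inputs of the factors were also not called. With 1.18% called over all tested genes, these lists do not stand apart from the rest. Of 15 cofactors, among them class IIa histone deacetylases, Groucho corepressors and NuRD subunits, 0 were called (median log2 fold change 0.04). Hdac9, the class IIa deacetylase that binds MEF2, had 86.5 ± 20.1 CPM in non-Tg and 113 ± 19.3 in PS2APP (log2 fold change 0.39 ± 0.17, adjusted p = 0.360, edgeR). Of 7 TGF-beta receptor and SMAD genes, which carry the signal that maintains Sall1, 0 were called (median −0.09), with 6 estimates below 0 and 1 above. The one above was the receptor gene Tgfbr2, which gave 0.29 ± 0.12 (adjusted p = 0.339, edgeR).

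Genes known as targets of these factors, or as marks of the resting microglial state, were mostly uncalled, with 2 exceptions. Of 16 myeloid target genes 1 rose, 0 fell and 15 were not called (median log2 fold change 0.02). Over all tested genes 0.958% rose and 0.222% fell. The one called was Csf2ra, the alpha chain of the GM-CSF receptor. It ran from 23.8 CPM over 42.0 to 81.4 in non-Tg and from 60.3 over 82.5 to 108 in PS2APP, above the non-Tg median in 9 of 9 samples, although 4 lay inside the non-Tg range. The fold change was 1.94 (log2 0.96 ± 0.22, adjusted p = 0.0276, edgeR), and 21 of 32 alternative settings called it. Cybb, the catalytic subunit of the phagocyte NADPH oxidase and a classical PU.1 and IRF8 target, averaged 52.7 ± 25.7 CPM in non-Tg and 118 ± 58.0 in PS2APP (log2 1.06 ± 0.31, adjusted p = 0.126, edgeR). It was called in 3 of 32 settings: DESeq2 (adjusted p = 0.0221), limma-voom with quality weights (0.0258) and edgeR with no filter on low counts (1.65e-05). Cd68, a lysosomal glycoprotein, gave 0.41 ± 0.14 (adjusted p = 0.193, edgeR). Of 14 homeostatic microglia genes 0 rose, 1 fell and 13 were not called, with all 14 estimates below 0 and a median of −0.34. Over all tested genes 7371 of 13994 estimates were below 0. Several of the 14, such as P2ry12, Tmem119 and Cx3cr1, were also among the microglia markers above, so the 2 counts are not independent. The lists were chosen with earlier results of these data known. P2ry13, a purine receptor, averaged 3071 ± 653 CPM in non-Tg and 2145 ± 332 in PS2APP, with 9 of 9 samples below the non-Tg median (log2 −0.55 ± 0.13, adjusted p = 0.0304, edgeR), and 17 of 32 settings called it. Tmem119 gave −0.50 ± 0.18 and P2ry12 −0.38 ± 0.14 (adjusted p = 0.238 for each, edgeR). Both calls were lost at either age alone, without the 3 libraries low in Xist, with the 4 immediate-early-high libraries removed, without an age term and with the neuron marker level in the fit. The P2ry13 estimate hardly moved in these settings, lying between −0.575 and −0.498. That of Csf2ra was 1.54 at 14 months, 0.65 at 15 months and 0.43 with the neuron marker level. With single samples left out in turn, Csf2ra lost its call in 5 of 15 fits (without PS2APP 1, PS2APP 15, non-Tg 5, non-Tg 12 or non-Tg 13), with adjusted p between 0.00418 and 0.098 and the log2 estimate between 0.82 and 1.15 over the 15. P2ry13 lost it in 7 of 15 (without PS2APP 6, PS2APP 7, PS2APP 15, non-Tg 5, non-Tg 9, non-Tg 11 or non-Tg 13), with adjusted p between 0.0178 and 0.0888 and the log2 estimate between −0.61 and −0.50. Once those 4 libraries were removed, 2 other list genes were called by edgeR: Tmem119 (log2 −0.78, adjusted p = 0.0331) and Slc2a5, a fructose transporter of microglia (−0.82, adjusted p = 0.0388; −0.54 and 0.175 in all libraries). Of 10 immediate early genes 0 were called (median −1.75), and their levels were high in the 4 libraries named above. With no filter on low counts, edgeR called Fos (log2 −3.20, adjusted p = 2.83e-66), Jun (−1.66, 8.86e-20), Ier2 (−1.87, 2.16e-08) and Nr4a1 (−1.62, 0.00533). In the main fit these estimates were nearly the same, −3.21, −1.67, −1.87 and −1.63, with adjusted p of 0.393, 0.434, 0.403 and 0.262 (edgeR). The calls, like that of Cybb in this setting, thus came with the filter setting and not with a larger change. Fos averaged 758 ± 1425 CPM in non-Tg and 61.8 ± 116 in PS2APP. With those 4 libraries removed, the Fos estimate was 0.17 and that of Jun −0.07.

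Age changed no factor beyond the adjusted threshold. Between 15 and 14 months 0 of 13994 genes were called by edgeR, 0%, with 1112 genes (7.95%) at an unadjusted p under 0.05. Mef2c was the 1 of 9 factors at that unadjusted level, with a log2 difference, 15 minus 14 months, of −0.33 ± 0.13 (adjusted p = 0.587, edgeR). The interaction of genotype with age called 0 genes, 0%, with 1038 (7.42%) at an unadjusted p under 0.05, and Mef2a was the 1 factor among them (0.51 ± 0.24, adjusted p = 0.666, edgeR).

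Within a single age some factors had ranges that did not overlap between the genotypes, and none was called. At 15 months, Maf ran from 523 to 667 CPM in 4 non-Tg samples and from 689 to 1336 in 5 PS2APP samples, with no overlap (log2 fold change 0.51 ± 0.20, adjusted p = 0.329, edgeR). Mef2c was likewise apart at 15 months, 791 to 933 CPM against 939 to 1063, although the log2 fold change was only 0.23 ± 0.14 (adjusted p = 0.559, edgeR). These were 2 of 9 factors, and the ranges failed to overlap for 4.54% of all tested genes at that age. At 14 months, with 2 non-Tg samples, Mef2a ran from 1746 to 2235 CPM in non-Tg and from 1253 to 1697 in PS2APP (log2 fold change −0.44 ± 0.24, adjusted p = 0.592, edgeR). Sall1 also did not overlap at 14 months, but by a narrow margin, 1125.5 to 1184 CPM against 861 to 1120.9. These too were 2 of 9 factors. With 2 against 4 samples, 18.7% of all tested genes had ranges that did not overlap, so the count at 14 months does not stand apart. No factor separated at both ages.

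The factors were also compared in pairs across the 15 libraries, with the genotype means removed. Age was not removed. Of 36 pairs, 16 correlations were negative, and 1 pair passed Benjamini-Hochberg adjustment over the 36 by Pearson's r and 0 by Spearman's rho. That pair was Irf8 and Mef2c, with r = −0.787 (permutation p = 0.00064, adjusted p = 0.0230) and rho = −0.736 (permutation p = 0.00331, adjusted p = 0.0596). Libraries rich in Irf8 tended to be poor in Mef2c. The log2 age difference, 15 minus 14 months, was 0.26 ± 0.15 (SE) for Irf8 and −0.33 ± 0.13 for Mef2c. Its part in this correlation was not tested. The correlation was −0.739 within PS2APP and −0.874 within non-Tg, and −0.811 without PS2APP 1 and PS2APP 3, the samples farthest from the Irf8 median. It was −0.765 without non-Tg 11 and −0.735 with the 4 immediate-early-high libraries removed. Sall1 and Sall3 gave r = 0.700 (permutation p = 0.00307, adjusted p = 0.0553) and rho = 0.761 (adjusted p = 0.0596), which misses the threshold. It was 0.898 within PS2APP, 0.584 within non-Tg and 0.640 without the 2 farthest samples. Spi1 and Irf8 gave r = 0.643 (permutation adjusted p = 0.150), 0.883 within PS2APP and 0.206 within non-Tg. With CPM not scaled for composition, 3 pairs passed, these 3, with adjusted p-values of 0.0310, 0.0396 and 0.0434.

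**Figure D4:**
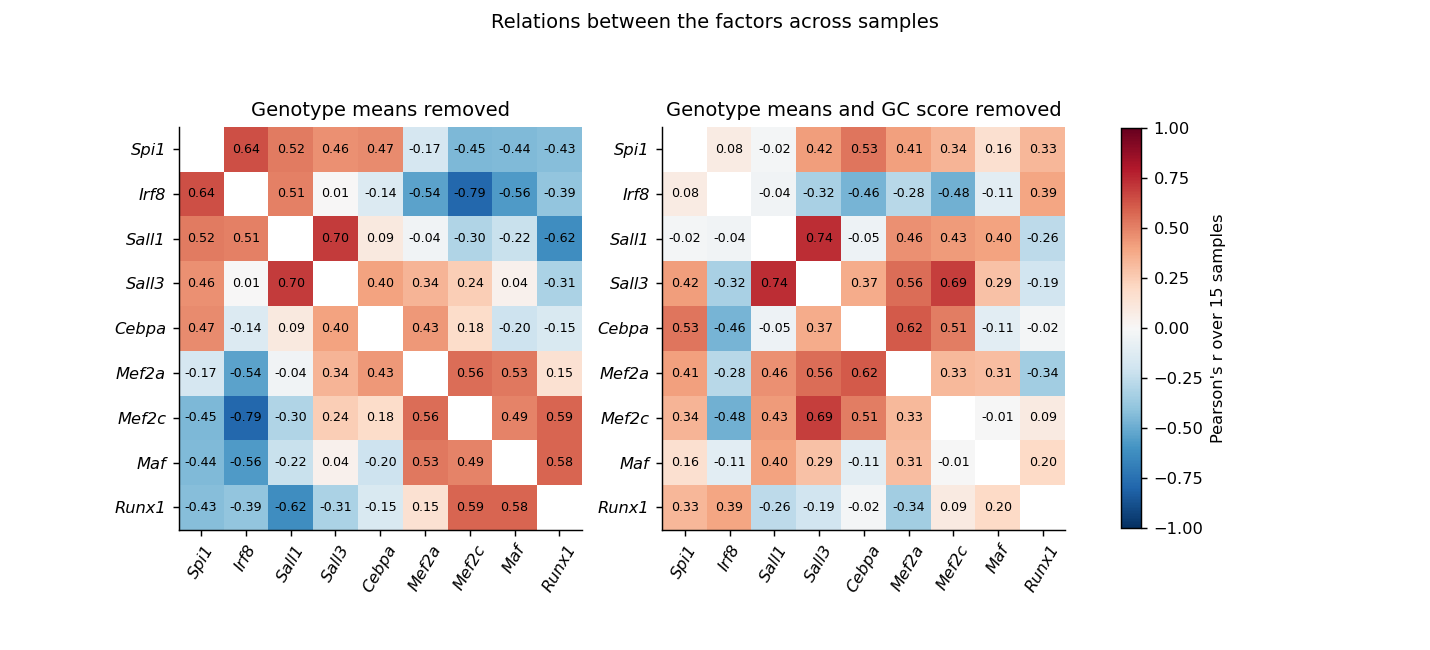
Pearson's r between the 9 factors over 15 samples, with genotype means removed (left) and with the GC score also removed (right), red for positive and blue for negative. The Irf8 and Mef2c cell goes from −0.79 to −0.48, while Sall1 and Sall3 go from 0.70 to 0.74.

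Base composition moved with these relations. Each library was given a GC score, the mean log2 CPM of tested genes in the top 25% for guanine and cytosine content minus that of genes in the bottom 25%, from the longest GENCODE transcript of each gene. A transcript was found for 88.2% of tested genes. The score ran from −1.51 over a median of −0.88 to −0.38 in non-Tg and from −1.62 over −1.08 to −0.60 in PS2APP, so the groups overlapped. In total 6 of 9 factors followed it after adjustment over the 9 relations, each with r of 0.659 or more in size. That size is the smallest of these 6, so it was set by the factors themselves. It was reached by 10.8% of all tested genes. Of the 6170 tested genes that lie between the 2 sets and play no part in the score, 5.3% reached it. Genes of like level were not compared, so these shares cannot be read as particular to the factors. Spi1 had r = 0.783 with the score (rho 0.768; permutation adjusted p = 0.00698), Irf8 0.779 (rho 0.711; adjusted p = 0.00698) and Sall1 0.672 (rho 0.646; adjusted p = 0.0109). Mef2c had −0.754 (rho −0.679; permutation adjusted p = 0.00812), Runx1 −0.723 (rho −0.771) and Maf −0.659 (rho −0.629), both with the same adjusted p as Mef2c. The relations of these 6 held without non-Tg 2 and non-Tg 13, the libraries with scores farthest from the median, with r of 0.853, 0.708, 0.618, −0.690, −0.683 and −0.671. Mef2a (−0.494), Sall3 (0.258) and Cebpa (0.192) did not pass. The sign matched the transcript's own composition for each of the 9, a match that the way the score is built favours for any gene. The share of all tested genes with a matching sign was not computed, so the match says nothing particular about the factors. Spi1 (58.9%), Irf8 (51.7%), Sall1 (51.6%), Sall3 (54.4%) and Cebpa (62.6%) lay above the 49.3% median of tested genes and had a positive r, and Mef2c (40.8%), Mef2a (42.0%), Runx1 (46.4%) and Maf (47.4%) lay below it and had a negative r. The size of r did not follow composition: Cebpa was the richest and had the smallest r. Spi1, Sall3 and Cebpa fall in the GC-rich set and Mef2c and Mef2a in the GC-poor set, so they are themselves a small part of the score.

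With the score removed, the Irf8 and Mef2c correlation was −0.484 (permutation adjusted p = 0.452) and that of Spi1 and Irf8 was 0.084 (adjusted p = 0.951). That of Sall1 and Sall3 was 0.735 (permutation adjusted p = 0.0248), the 1 pair that passed on that scale. As a further covariate in the genotype fit, the score left 0 of 9 factors called, with Spi1 at −0.28 and Maf at 0.22.

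**Figure D5:**
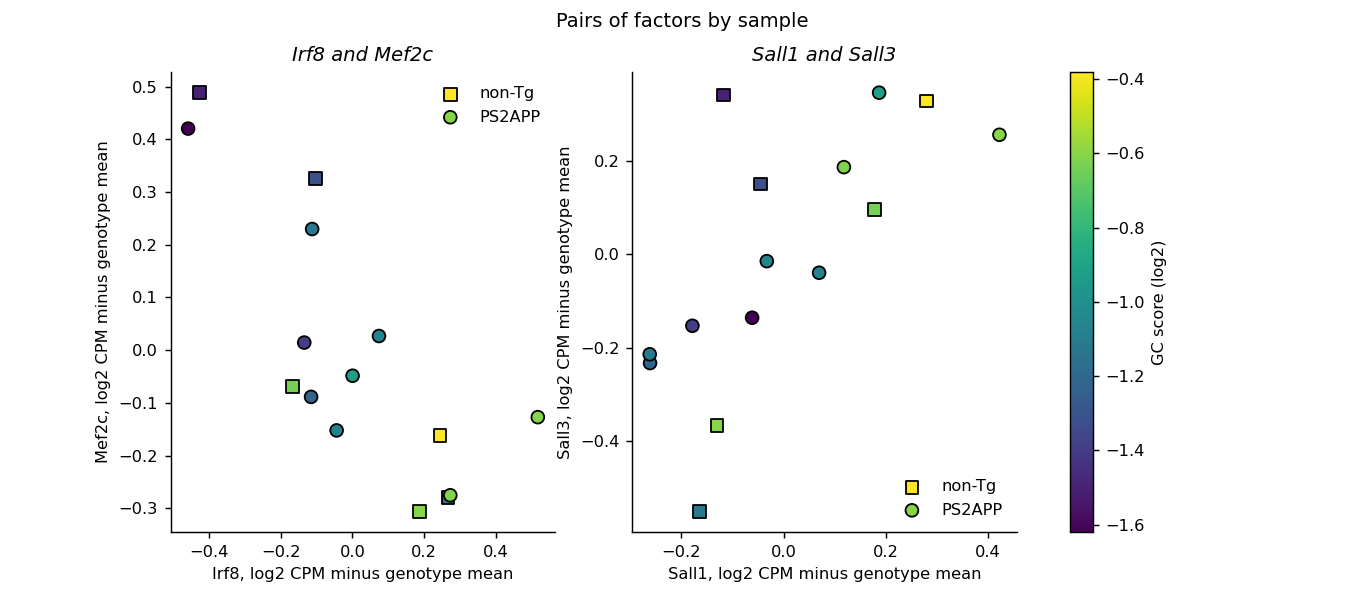
Irf8 against Mef2c (left) and Sall1 against Sall3 (right), log2 CPM minus the genotype mean, 1 point per sample, squares for non-Tg and circles for PS2APP, coloured by GC score. On the left the points fall from upper left to lower right with dark, low-score libraries at the top (r = −0.787), and on the right they rise together (r = 0.700) with colours more mixed.

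For each factor, the genes whose level was most like it were sought among 7870 genes with an average of at least 4 on the log2 CPM scale, over the 15 samples with genotype means removed. The highest r was 0.931, between Irf8 and Trpc4ap, a TRP channel-associated protein, followed for Irf8 by Nfam1 (0.911), an immune receptor with an ITAM motif. Spi1 was nearest Nckap1l (0.873), the blood-cell subunit of the WAVE complex, and Rps6ka1 (0.869). Sall1 was nearest an identifier with no symbol in the reference (0.920) and Mef2d (0.890), another of the family genes above. Sall3 was nearest Adamts16 (0.904) and Mvb12b (0.829), and Maf nearest Tnrc6b (0.885) and Cdk12 (0.880). Mef2c was nearest Foxn2 (0.918) and Nr3c1 (0.913), the glucocorticoid receptor, and Mef2a nearest Cebpz (0.900) and Rapgef6 (0.893). Runx1 was nearest Gdi2 (0.923) and Nrp1 (0.916). For Cebpa the nearest were Fbxl20 (0.874) and Tbc1d10a (0.868), but the rank correlations were 0.561 and 0.596. These are the extremes of many correlations over the same libraries and share their depth and base composition.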

How the data were processed

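Each sample had 1 deposited table with a whole-number count of uniquely aligned reads per gene model and a size-factor-adjusted RPKM (nRPKM), per the file headers. The submitters' processing notes name GSNAP and the build GRCm38. How the size factor was computed, which annotation was used and whether strand was counted is not stated. Gene identifiers were matched to RefSeq symbols (31049 of 36528), and gene positions are from the RefSeq table for GRCm38.p6. Counts were fitted with edgeR 4.0.16 in R 4.3.3 (filterByExpr, TMM, quasi-likelihood, genotype and age over 15 samples). Standard errors come from dividing each estimate's absolute value by the root of its F statistic. Calls have a Benjamini-Hochberg adjusted p under 0.05. The model recovered known changes when tested on simulated counts, in which the changes were 2-fold or 4-fold. These counts were drawn from the model's own fitted dispersions, which favours recovery, and held none of the shared shifts between libraries described above. The estimates for the factors were smaller, and recovery at their size was not tested. Replicates of a group differed more than counting error (chi-square per degree of freedom of 9.98 to 67.5 over 51 pairs). Correlations used log2 CPM with a prior count of 2, with age not removed, and 100000 permutations within genotype. Alternatives used limma 3.58.1 and DESeq2 1.42.0. Genes named are the 9 factors, from each list up to 4 genes lowest in adjusted p, Cbfb, Mef2d and any called gene, with the 2 most alike genes per factor. The members and lists were chosen with earlier results of these data known. Some genes of the lists are not reported here. The GC score was added after seeing the data.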

Additional observations from a re-analysis of the deposited data

How the results depend on the processing

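None of the 9 factors was called under any of the 32 alternatives to the genotype fit (other filters, scalings and tools, each age alone, libraries left out, marker scores as covariates, and each of 15 samples left out in turn). Spi1 (log2 fold change −0.44 to −0.22), Sall1 (−0.35 to −0.18) and Maf (0.12 to 0.68) kept their sign in 32 of 32. The count of 165 genes called over all genes became 648 with no filter, 390 with DESeq2, 50 at 14 months, 65 at 15 months, 81 without the 3 libraries low in Xist and 22 with the neuron score. The count of 2 genes called among the family, cofactor, TGF-beta, target and homeostatic lists became 0 with no age term, at 14 months, at 15 months, without the libraries low in Xist and with the neuron score, 4 with no filter (with Cybb and Rhob added, Rhob being named after its values were seen) and 4 with DESeq2 (with Cybb and Cebpd added), and 1 with limma on log2 nRPKM (pseudocount 1) and with the immediate early score. It ranged from 0 to 2 with 1 sample left out. Without the 4 libraries with high immediate early genes it was again 2, but for Tmem119 and Slc2a5 in place of Csf2ra and P2ry13. The count of factor pairs that passed became 3 without composition scaling. The cause of these shifts was not tested.

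Estimates that changed sign were near 0 or uncalled. With limma-voom and quality weights they were Cebpa −0.111, Mafk 0.211, Runx2 −0.0033 and Cebpb −0.146, and on nRPKM Mafk 0.00818. At 14 months they were Mef2c −0.187, Runx1 −0.0443, Cebpa −0.151, Sall2 0.0311, Maff −0.695, Cebpg −0.0915, Cebpb −0.386 and Aif1 0.288. At 15 months they were Irf8 −0.0361, Sall3 0.162, Mef2a 0.0299, Irf4 0.0518, Mafk 0.0173, Runx2 −0.00282 and Smad7 0.146. Leaving out the 4 libraries with high immediate early genes gave Irf8 −0.126, Mef2a 0.0079, Mafk 0.653, Hdac1 0.109 and Fos 0.173. Without the libraries low in Xist they were Irf8 −0.0635, Sall3 0.0204, Mafk 0.523, Runx2 −0.0887 and Smad7 0.107. With the neuron score they were Mef2c −0.0326, Cebpa −0.17, Sall2 0.214, Maff −0.0921, Runx2 −0.349, Cebpb −0.188 and Tle4 0.00178. With the immediate early score it was Mafk 0.132, with the border macrophage score Sall3 0.0197, and with the GC score Sall3 0.00242, Runx1 −0.014 and Cebpg −0.0399. With 1 sample left out, Irf8 ranged from −0.0249 to 0.0934, Sall3 from −0.116 to 0.0486, Runx1 from −0.0567 to 0.111, Cebpa from −0.125 to 0.268, Sall2 from −0.222 to 0.0145, Mafk from −0.356 to 0.434, Maff from −0.19 to 0.352, Runx2 from −0.139 to 0.213, Cebpg from −0.0418 to 0.166, Cebpb from −0.0717 to 0.432 and Smad7 from −0.379 to 0.0564.

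The 6 non-Tg samples, 2 of them at 14 months, limit the precision. No paired analysis was possible because the sample numbers in the titles are not shared between the genotypes.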
